A study of Homo sapiens with 2 samples.

Results

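The EGF receptor ligands and ERBB receptors of HaCaT keratinocytes were examined by RNA-seq after overexpression of FLI1. The set holds 10 of the 15159 genes in the gene table, taken by gene symbol: 6 ligand genes (HBEGF, AREG, EREG, TGFA, EPGN and BTC), 3 receptor genes (EGFR, ERBB2 and ERBB3) and the feedback inhibitor gene ERRFI1. HaCaT is an immortal keratinocyte line of human skin that arose in culture without any introduced gene. One library came from HaCaT cells transfected with the MigR1 vector carrying FLI1, an ETS-family transcription factor, and 1 library from HaCaT cells transfected with the MigR1 vector alone. Both were transfected with Lipofectamine 2000, checked for GFP and collected 2 days later. The promoter that drives FLI1 and the share of cells that took up DNA are not given in the labels. The study asks how FLI1 relates to inflammatory genes of psoriasis in keratinocytes. Each group has 1 library, so the spread between replicates is unknown and no p-value was computed.

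In this receptor family, membrane-bound ligand precursors are cut at the cell surface by ADAM proteases, and the released peptides bind EGFR or its relatives, which then pair and signal through RAS and ERK and through PI3 kinase. Keratinocytes make several of these ligands themselves and respond to them, a loop that drives their growth and migration in wounds. ERBB2 has no known ligand and acts as a partner, ERBB3 binds neuregulins and has little kinase activity of its own, and ERRFI1 (also called MIG6) binds the kinase domain of active EGFR and inhibits it.

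The ligand genes were mostly higher in the FLI1 library, and the receptor genes were nearly level. HBEGF stood first at 3.41-fold (95% counting interval 3.01 to 3.89), followed by AREG at 1.95-fold (1.60 to 2.39), EREG at 1.70-fold (1.41 to 2.06) and TGFA at 1.41-fold (1.33 to 1.501). EPGN was the only ligand gene that was lower, at 0.510-fold (0.258 to 0.943), from few reads. EGFR, ERBB2 and ERBB3 all lay between 0.923-fold and 1.06-fold. ERRFI1 was 1.39-fold higher (1.27 to 1.53). These folds are ratios of read counts after scaling by TMM, FLI1 over vector control, and the intervals are exact conditional intervals that cover counting error only, so they compare these 2 libraries and not the conditions.

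The stretches before the annotated starts of the ligand genes with the largest ratios, HBEGF, AREG and EREG, are shown beside that of EPGN. EPGN had few reads and met the minimum read number only in the vector control library, where it was higher. Its direction therefore supports no contrast between these sequences, and they are described only. FLI1 and other ETS factors bind sequences around a GGAA core, so each GGAA on either strand (GGAA or TTCC as read here) is in capitals. Each sequence is the 250 bases before the start, 5′ to 3′ on the strand of the gene, from RefSeq promoters of build GRCh38.p14.
HBEGF (chr5:140346604-140346853, minus strand): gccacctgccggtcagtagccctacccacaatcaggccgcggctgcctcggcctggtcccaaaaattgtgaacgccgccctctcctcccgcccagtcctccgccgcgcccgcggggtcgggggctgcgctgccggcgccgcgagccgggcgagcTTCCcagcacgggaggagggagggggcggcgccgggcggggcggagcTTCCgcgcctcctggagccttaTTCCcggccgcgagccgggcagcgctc
AREG (chr4:74444886-74445135, plus strand): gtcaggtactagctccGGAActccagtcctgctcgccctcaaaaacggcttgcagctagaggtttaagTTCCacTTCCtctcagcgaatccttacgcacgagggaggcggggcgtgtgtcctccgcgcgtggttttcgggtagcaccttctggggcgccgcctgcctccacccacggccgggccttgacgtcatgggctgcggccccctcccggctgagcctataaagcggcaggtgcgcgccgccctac
EREG (chr4:74364895-74365144, plus strand): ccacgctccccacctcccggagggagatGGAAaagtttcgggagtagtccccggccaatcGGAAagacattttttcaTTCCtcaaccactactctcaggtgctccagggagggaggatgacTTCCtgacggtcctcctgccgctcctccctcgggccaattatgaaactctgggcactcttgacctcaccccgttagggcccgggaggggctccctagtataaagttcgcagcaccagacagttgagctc
EPGN (chr4:74308220-74308469, plus strand): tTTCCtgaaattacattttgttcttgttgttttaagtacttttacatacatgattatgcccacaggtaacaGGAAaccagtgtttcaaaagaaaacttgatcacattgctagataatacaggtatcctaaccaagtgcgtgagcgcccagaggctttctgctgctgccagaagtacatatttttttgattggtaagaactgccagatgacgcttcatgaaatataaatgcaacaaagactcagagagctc

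The 4 stretches differ in base composition as well as in matches. GC content was 76.4% before HBEGF, 65.2% before AREG, 58% before EREG and 38% before EPGN, against a median of 58% over all 35116 promoter windows of the same length. In the other windows of the set it was 75.2% for ERRFI1, 65.6% for ERBB2 and 62% for BTC. For the outer and inner starts it was 73.6% and 38.8% for EGFR, and 75.6% and 64% for TGFA. Whether GC content goes with the ratios was not tested. GGAA occurred 3 times before HBEGF, 3 times before AREG, 4 times before EREG and 2 times before EPGN. The core is short, and 92.7% of all windows hold at least 1 match, with a median of 3. The longer motif CGGAAG, which contains the core, was found before HBEGF and not in the other 3 windows, and 16.5% of all windows hold it. A match is a description of the letters and does not show that a factor binds there.

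Over the whole set, 9 of the 10 genes had a RefSeq window, and TGFA and EGFR had 2 each, 11 windows in all. The promoter of ERBB3 was not analysed here. Matches were counted for genes of either direction. ERBB2 had 5 GGAA matches and 3 of CGGAAG, and ERRFI1 had 0 of either. Whether the number of matches goes with the ratios was not tested. TGFA had 3 GGAA matches before its outer start and 7 before its inner start, BTC had 1, and EGFR had 1 before its outer and 5 before its inner start. The motif TGANTCA, in which N is any base, is a loose form of the AP-1 site of FOS and JUN dimers. It was found in 6.57% of all windows. Among these 11, it was in the ERBB2 window (1 match) and before the inner start of EGFR (2 matches). The ERBB2 match read TGATTCA, without the C or G that the AP-1 site has at N. The 2 matches of EGFR read TGAGTCA and TGACTCA. The windows sit at RefSeq starts: in GENCODE release 29, no transcript of BTC began within 100 bases of its window's start, none of EGFR at the inner one, and 2 of the 22 ERBB2 transcripts at its window.

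**Figure D1:**
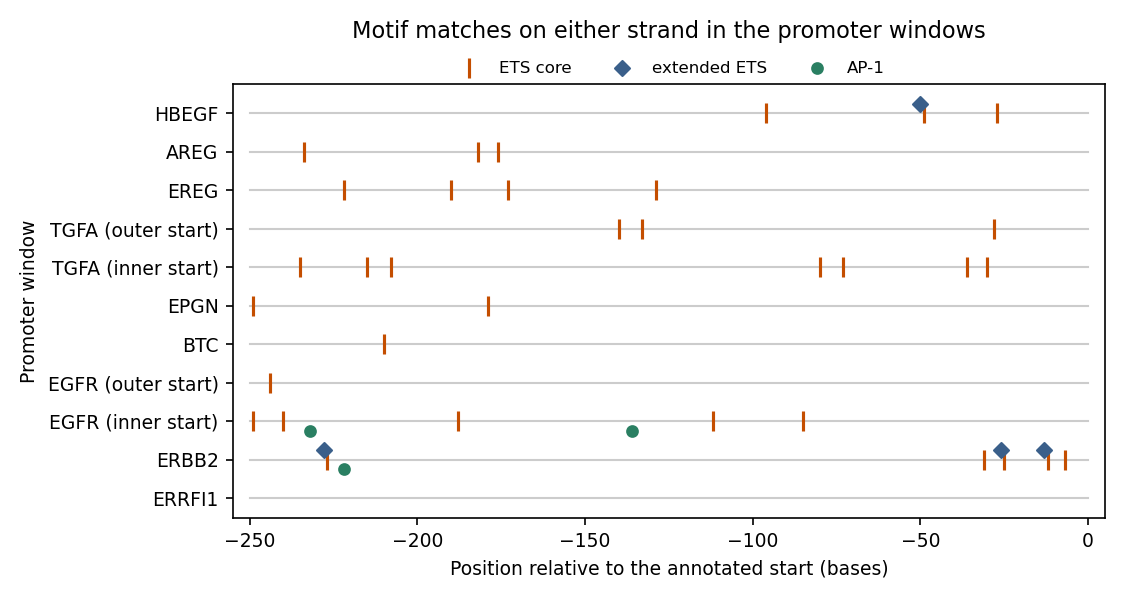
Motif matches on either strand in the 11 promoter windows, against position in bases relative to the annotated start. Orange ticks are the ETS core (GGAA), blue diamonds the extended ETS motif (CGGAAG) and green circles the loose AP-1 motif (TGANTCA). HBEGF and ERBB2 hold the extended ETS motif, and ERRFI1 holds none of the 3 motifs.

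Both libraries were of similar depth, with 14677273 reads in the FLI1 library and 14497105 in the vector control library after rounding of the estimated counts. FLI1 itself had 2452 reads in the FLI1 library and 64 in the vector control library, which is 38.2-fold. All 9 keratinocyte markers were present, with FPKM (fragments scaled for transcript length and depth) of at least 56.8 in the FLI1 library and at least 53.0 in the vector control library. Markers of other cells were mostly at low levels: 2 of 6 fibroblast, 5 of 5 melanocyte, 3 of 6 leukocyte and 3 of 5 endothelial markers had values, with summed FPKM of 1.20, 4.96, 19.2 and 0.75 in the FLI1 library, against 1.23, 1.16, 12.8 and 0.43 in the vector control library. PMEL, CD68 and VWF, of the melanocyte, leukocyte and endothelial lists, were higher in the FLI1 library with intervals above 0 (log2 ratios 4.81, 0.63 and 0.79). MITF (0.37) of the melanocyte list, and ITGAM (0.60) and LYZ (-0.48) of the leukocyte list, had intervals that included 0. TYRP1 had 0 reads in the vector control library, DCT 0 in the FLI1 library and CDH5 0 in the vector control library. The part of these markers in the results was not tested. In bulk RNA, a change in how many cells make a transcript and a change in how much each cell makes cannot be told apart.

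All 10 genes passed the filter of 20 reads in either library, as did 11659 genes in all. EPGN passed it through the vector control library alone. All 10 had whole-number counts in both libraries. Of the 10, HBEGF alone was at least 2-fold higher, where 1.19% of all genes past the filter were, and 0 were at least 2-fold lower, where 0.48% were. Intervals above 0 were found for 6 of the 10, against 16.5% of all genes, and intervals below 0 for 2, against 14.7%. The 6 were HBEGF, AREG, EREG, TGFA, EGFR and ERRFI1, with EGFR at only 1.06-fold. Intervals narrow as reads increase, and the shares over all genes include genes with as few as 20 reads, so depth was not matched. The 2 below 0 were ERBB2 and EPGN, and EPGN was counted although it passed the filter only through the library in which it was higher. Scaled by library total, the 6 and 2 were the same, while the split over all genes turned: 1529 genes lay above 0 and 2198 below, against 1923 and 1718 with TMM. The median log2 ratio of the 10 was 0.48, of the 6 ligand genes 0.63 and of the 3 receptor genes -0.06, against -0.0036 over all genes past the filter. The genes were chosen with earlier results of these data known, so these counts are a description.

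HBEGF encodes heparin-binding EGF-like growth factor, a ligand of EGFR and ERBB4 that is also the receptor of diphtheria toxin. It had 1071 reads (35.14 FPKM) in the FLI1 library and 315 reads (10.43 FPKM) in the vector control library. The log2 ratio was 1.77 (95% counting interval 1.59 to 1.96). Of the 11659 genes past the filter, 41 had a higher ratio, and of the 10006 genes that reached 100 reads in either library, 8 did. In the order of levels, HBEGF was at rank 2663 of all listed genes in the FLI1 library, against rank 6575 in the vector control library.

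AREG encodes amphiregulin, a ligand of EGFR that keratinocytes release in culture and that is abundant in psoriatic epidermis. It had 301 reads (21.53 FPKM) in the FLI1 library and 155 reads (11.15 FPKM) in the vector control library. The log2 ratio was 0.96 (0.68 to 1.25), just under the 2-fold rule, and the interval reached past it. EREG encodes epiregulin, a ligand of EGFR and ERBB4. It had 299 reads (4.70 FPKM) in the FLI1 library and 177 reads (2.81 FPKM) in the vector control library, and a log2 ratio of 0.76 (0.49 to 1.04). AREG and EREG thus had similar read numbers, while per kilobase the level of AREG was 4.58 times that of EREG in the FLI1 library.

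TGFA encodes transforming growth factor alpha, a ligand of EGFR. It was the ligand gene with the highest level in both libraries, with 47.84 FPKM in the FLI1 library and 34.37 in the vector control library. Its read counts, 2694 in the FLI1 library and 1915 in the vector control library, gave the narrowest interval among the ligand genes, with a log2 ratio of 0.50 (0.42 to 0.59). BTC encodes betacellulin, which binds EGFR and ERBB4. It had 65 reads (1.97 FPKM) in the FLI1 library and 47 reads (1.53 FPKM) in the vector control library. Its log2 ratio of 0.47 was close to that of TGFA, but the interval (-0.09 to 1.05) included 0, so a difference was not detectable at this depth.

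EPGN encodes epigen, a ligand of EGFR with low affinity. It had 16 reads (0.49 FPKM) in the FLI1 library and 32 reads (0.95 FPKM) in the vector control library. The log2 ratio was -0.97 (-1.96 to -0.08), with an upper bound close to 0. EPGN had the lowest level of the set in both libraries.

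**Figure D2:**
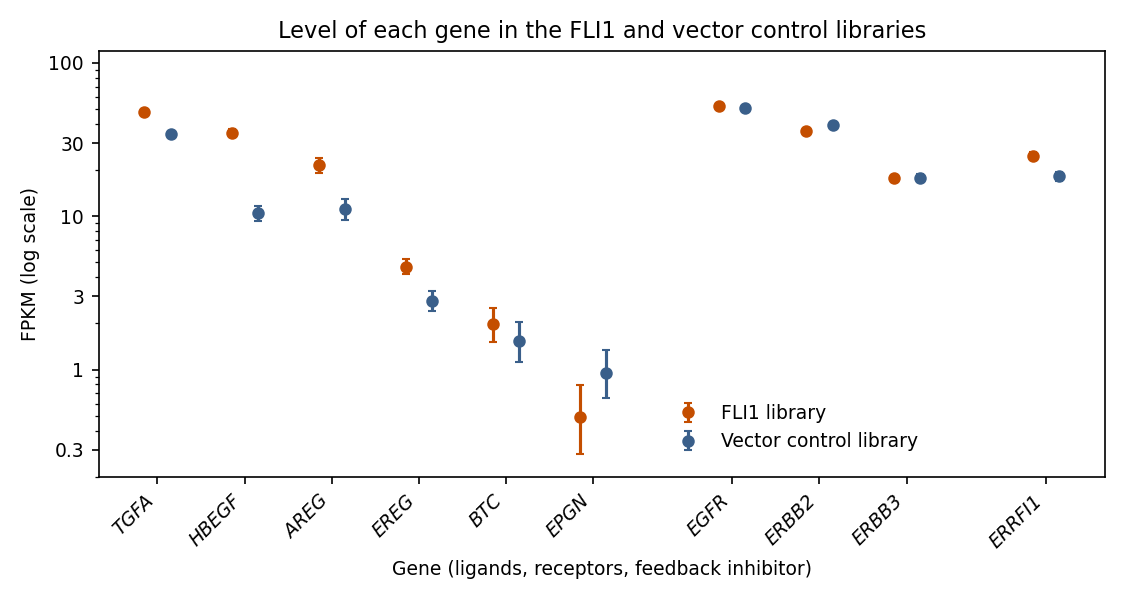
FPKM of each gene (log scale) in the FLI1 library (orange, left) and the vector control library (blue, right), with 95% Poisson counting intervals. TGFA, HBEGF, AREG, EREG and ERRFI1 lie higher in the FLI1 library, and EPGN and BTC have wide intervals. The receptor genes lie close together, with ERBB2 slightly lower in the FLI1 library.

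The order of the ligand genes by FPKM differed at 1 place. In the FLI1 library it was TGFA, HBEGF, AREG, EREG, BTC and EPGN, and each level was above the next beyond counting error. TGFA was there 1.36 times the level of HBEGF (1.27 to 1.46), and HBEGF 1.63 times that of AREG (1.43 to 1.86). In the vector control library AREG came before HBEGF, but by only 1.07 times (0.876 to 1.30), so these 2 genes did not differ beyond counting error. TGFA was 3.08 times the level of AREG in that library (2.62 to 3.65).

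Whether the ligand genes differed among themselves in their ratio was read from ratios of ratios, which need no scaling of the libraries. The ratio of HBEGF was 1.75 times that of AREG (95% exact conditional interval 1.38 to 2.22), 2.01 times that of EREG (1.60 to 2.53) and 2.42 times that of TGFA (2.10 to 2.79). AREG against EREG (1.15, 0.871 to 1.52) and EREG against TGFA (1.20, 0.984 to 1.47) had intervals that included 1. AREG against TGFA was 1.38 (1.12 to 1.70). HBEGF was therefore apart from these 3 ligand genes, and AREG from TGFA, by counting error. These are among 21 such pairs computed, and the intervals were not widened for that number.

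Of the receptor genes, EGFR had the most reads of the set, 7289 (52.70 FPKM) in the FLI1 library and 6925 (50.79 FPKM) in the vector control library. Its log2 ratio was 0.08 (0.03 to 0.13). ERBB2, the partner receptor without a known ligand, had 2201 reads (35.84 FPKM) in the FLI1 library and 2397 (39.50 FPKM) in the vector control library, and a log2 ratio of -0.12 (-0.20 to -0.03). ERBB3, the neuregulin receptor, had 1200 reads (17.65 FPKM) in the FLI1 library and 1259 (17.74 FPKM) in the vector control library, and a log2 ratio of -0.06 (-0.18 to 0.05) whose interval included 0. The high read numbers make these intervals narrow, and none of them reached beyond 1.15-fold in either direction.

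EGFR and ERBB2 differed in their ratios by a small amount beyond counting error, with ERBB2 at 0.872 times the ratio of EGFR (0.816 to 0.933). The order EGFR, ERBB2, ERBB3 by FPKM was the same in both libraries, and each level was above the next beyond counting error. EGFR was 1.47 times the level of ERBB2 in the FLI1 library (1.40 to 1.54) and 1.29 times in the vector control library (1.23 to 1.35). The span of ERBB2 overlaps MIEN1 (584 reads in the FLI1 library and 583 in the vector control library) and PGAP3 (193 reads in the FLI1 library and 221 in the vector control library) on the opposite strand. The strand setting of the counting is not given, so reads in such overlaps cannot be told apart.

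ERRFI1 had 1079 reads (24.82 FPKM) in the FLI1 library and 778 reads (18.23 FPKM) in the vector control library. The log2 ratio was 0.48 (0.35 to 0.61), close to that of TGFA. The ratio of TGFA over that of ERRFI1 was 1.01 (0.908 to 1.13), and that of ERRFI1 over that of EGFR was 1.32 (1.19 to 1.46). The ratio of the inhibitor gene was thus not separable from that of TGFA by counting error and lay above that of the receptor gene whose product it binds.

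**Figure D3:**
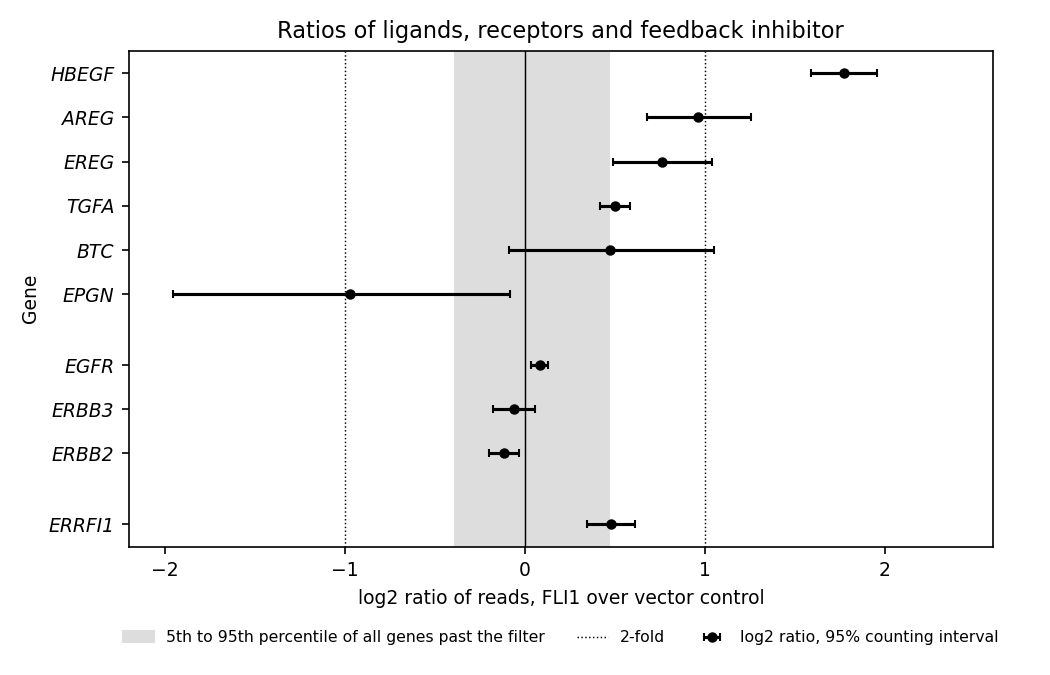
Log2 ratio of reads, FLI1 over vector control, for the ligand genes (top), the receptor genes (middle) and ERRFI1 (bottom), with 95% counting intervals. Grey marks the 5th to 95th percentile of all genes past the filter (-0.39 to 0.47), dotted lines mark 2-fold, and among these 10 genes HBEGF alone has an interval wholly beyond 2-fold.

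Summed per kilobase, the 6 ligand genes came to 111.67 FPKM in the FLI1 library and 61.24 in the vector control library, a ratio of 1.82. The 3 receptor genes came to 106.19 FPKM in the FLI1 library and 108.03 in the vector control library, a ratio of 0.983. Ligand transcripts thus summed to 1.05 times the receptor transcripts in the FLI1 library and to 0.567 times in the vector control library. In reads, the ligand sum was 4446 in the FLI1 library and 2641 in the vector control library, and the receptor sum 10690 in the FLI1 library and 10581 in the vector control library. The ratio of the ligand sum over that of the receptor sum was 1.67 (1.58 to 1.76). Without HBEGF this ratio of ratios was 1.44 (1.35 to 1.52), and the ratio of ligand FPKM was 1.51.

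HBEGF made up 49.0% of the difference in summed ligand FPKM, TGFA 26.7% and AREG 20.6%. The share of HBEGF in the ligand sum was 31.5% in the FLI1 library and 17.0% in the vector control library. The share of TGFA was 42.8% in the FLI1 library and 56.1% in the vector control library, although its own level was higher. AREG had a similar share, 19.3% in the FLI1 library and 18.2% in the vector control library. Among the receptors, EGFR made up 49.6% of the sum in the FLI1 library and 47.0% in the vector control library.

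**Figure D4:**
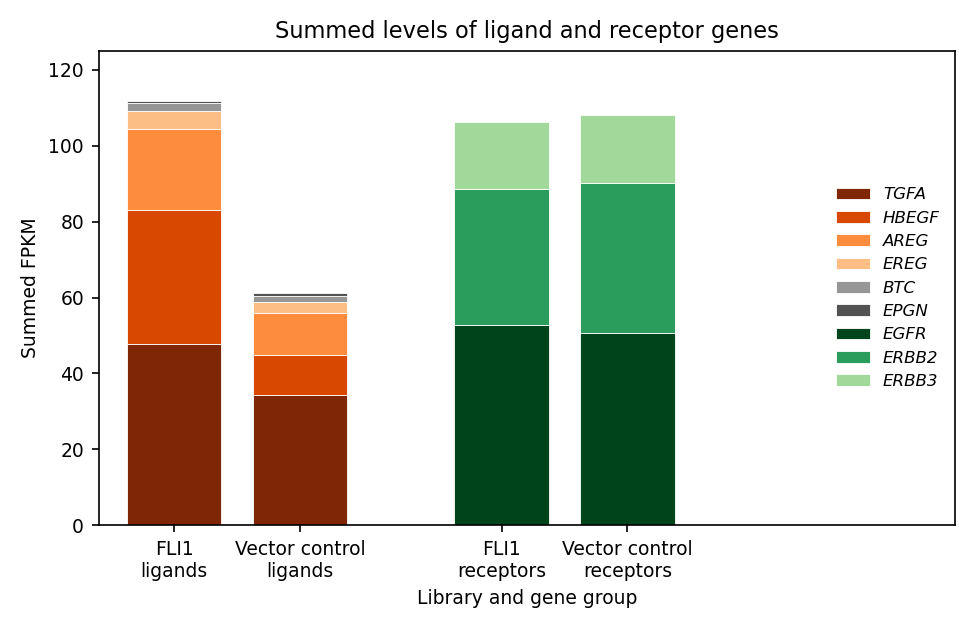
Summed FPKM of the ligand genes (left pair of bars) and the receptor genes (right pair), stacked by gene, with the FLI1 library left of the vector control library. The ligand bar reaches 111.67 FPKM in the FLI1 library and 61.24 in the vector control library, and the receptor bar 106.19 in the FLI1 library and 108.03 in the vector control library.

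Position in the genome was shared by 4 of the ligand genes. In GRCh38, EPGN (74308473 to 74315307), EREG (74365143 to 74388751) and AREG (74445134 to 74455009) lie in this order on the plus strand of chromosome 4, and BTC (74744759 to 74794686) lies beyond them on the minus strand. EPGN and EREG are 49.8 kb apart, EREG and AREG 56.4 kb, and AREG and BTC 289.7 kb. In GENCODE release 29 these 4 are the only protein-coding genes in the 486 kb between the outer ends of EPGN and BTC. The log2 ratios along this stretch were -0.97 for EPGN, 0.76 for EREG, 0.96 for AREG and 0.47 for BTC. EPGN passed the filter only through the vector control library, where it was higher, so its direction supports no comparison with its neighbours. HBEGF lies on chromosome 5 (140332843 to 140346631, minus strand), TGFA on chromosome 2 (70447280 to 70554193, minus strand), EGFR on chromosome 7 (55019021 to 55211628, plus strand), ERBB3 on chromosome 12 (56076799 to 56103505, plus strand), ERBB2 on chromosome 17 (39687914 to 39730426, plus strand) and ERRFI1 on chromosome 1 (8004404 to 8026308, minus strand).

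The transcript table allowed a look within each gene. HBEGF, AREG and EREG each had reads assigned to 1 transcript, so their ratios carry no assignment between isoforms. TGFA had 4 listed transcripts, and the leading 1, NM_003236, held 68.0% of its reads in the FLI1 library and 67.1% in the vector control library. ERBB3 (NM_001982, 97.5% in the FLI1 library and 98.5% in the vector control library) and ERRFI1 (NM_018948, 87.1% in the FLI1 library and 84.7% in the vector control library) likewise had a leading transcript at a similar share. Transcript reads are estimates, most of them fractional, and their error is not known, so no interval is given for them.

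For EGFR the leading transcript NM_005228 had 4317 estimated reads in the FLI1 library and 4257 in the vector control library. NM_001346900 had 1797 in the FLI1 library and 1231 in the vector control library, and NM_001346941 had 1172 in the FLI1 library and 1435 in the vector control library, so the slightly higher gene total combined a higher and a lower transcript estimate. For BTC the estimates were 34.6 reads in the FLI1 library and 10.4 in the vector control library for NM_001316963, and 28.95 in the FLI1 library and 30.9 in the vector control library for NM_001729. For EPGN, NM_001270992 had 14.4 estimated reads in the FLI1 library and 7.87 in the vector control library, while NM_001270989 was listed at 0 in the FLI1 library and at 16.3 in the vector control library. ERBB2 had 29 listed transcripts, of which 24 had reads in the FLI1 library, 26 in the vector control library and 21 in both. No ERBB2 transcript held more than 23.6% of the reads in the FLI1 library or 19.0% in the vector control library.

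Other genes of the pathway were read from lists drawn up with earlier results known, and their counts stand beside the shares over all genes past the filter, 16.5% with an interval above 0 and 14.7% below. Outside the immediate early list, the log2 ratios of the members past the filter lay between -0.45 and 0.53. NRG1, a neuregulin that binds ERBB3, had 31.30 FPKM in the FLI1 library and 26.15 in the vector control library (log2 ratio 0.16, 0.04 to 0.27). It was 1 of 2 further ligand genes past the filter, and the interval of the other, NRG4 (-0.45), included 0. Scaled by library total, the interval of NRG4 lay below 0. NRG3 and the receptor gene ERBB4 were not among the genes in the gene table, so they have no value here. Of 8 ligand sheddases and their partners past the filter, 2 had an interval above 0 and 0 below: FRMD8, which stabilises the sheddase complex (0.22), and the protease gene ADAM9 (0.13). The median of these 8 was 0.02, and a count of 2 among 8 genes says nothing particular to the list. In both lists, 0 genes past the filter were at least 2-fold higher or lower.

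Downstream, 3 of 13 receptor adaptor and exchange factor genes had an interval above 0 and 3 below, near the shares over all genes (16.5% and 14.7%). GAB1, a docking protein of receptor kinases (0.53, 0.20 to 0.85), the RAS exchange factor gene SOS2 (0.30) and the adaptor gene SHC1 (0.20) were higher, and the phospholipase gene PLCG1 was lower (-0.18). Of 12 RAS, RAF, MEK and ERK genes, 3 had an interval above 0 and 0 below: RASA1, a GTPase-activating protein that switches RAS off (0.32), the kinase gene BRAF (0.20) and the MEK gene MAP2K1 (0.15). Of the PI3 kinase and AKT genes, 8 were measured, 0 with an interval above 0 and 2 with one below 0, PIK3R2 (-0.18) and AKT2 (-0.14). The medians of these 3 lists were 0.05, 0.02 and -0.03, and counts this small, read against 16.5% above and 14.7% below over all genes, show nothing particular to them. Scaled by library total, the interval of BRAF included 0 and 3 PI3 kinase and AKT genes lay below 0.

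Of 12 negative regulators of the receptors, 4 had an interval above 0 and 1 below, against 16.5% and 14.7% of all genes, and the median was 0.08. Scaled by library total, 2 lay below. CBLC, a ubiquitin ligase of the CBL family found in epithelia, led with 44.20 FPKM in the FLI1 library and 29.94 in the vector control library (log2 ratio 0.52, 0.36 to 0.69), a ratio of the size of that of ERRFI1. SH3KBP1, a CBL-binding adaptor (0.26), the phosphatase gene PTPN12 (0.20) and CBL (0.19) were the others. Intervals lay above 0 for 6 of 12 receptor endocytosis genes and below 0 for 1 (16.5% and 14.7% of all genes), with STAM (0.23), STAM2 (0.19) and EPS15 (0.15) higher and EPN1 lower (-0.21). This count depended on the scaling: by library total, 2 of the 12 were above 0 and 3 below, and the intervals of STAM2 and EPS15 included 0.

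The immediate early list holds genes that growth factor signalling induces in many cells, some within minutes and some, such as FOSL1, later. Where 5732 of the 11659 genes past the filter had a ratio above 0, so did 11 of the 11 members of this list. An interval above 0 was found for 9 of them and below 0 for 0, against 16.5% and 14.7% of all genes, and 2 were at least 2-fold higher, against 1.19%. The median log2 ratio was 0.67. EGR1 had 785 reads in the FLI1 library and 360 in the vector control library (1.13, 0.95 to 1.32), and FOS had 60 reads in the FLI1 library and 29 in the vector control library (1.04, 0.39 to 1.75). JUN (0.89) and FOSL1 (0.87, with 96.33 FPKM in the FLI1 library and 53.56 in the vector control library) followed. The ratios of these 4 genes, named because they were the largest of the list, lay between those of EREG and HBEGF. Ratios in the list reached down to 0.17, and 2 of the 11 genes had an interval that included 0.

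**Figure D5:**
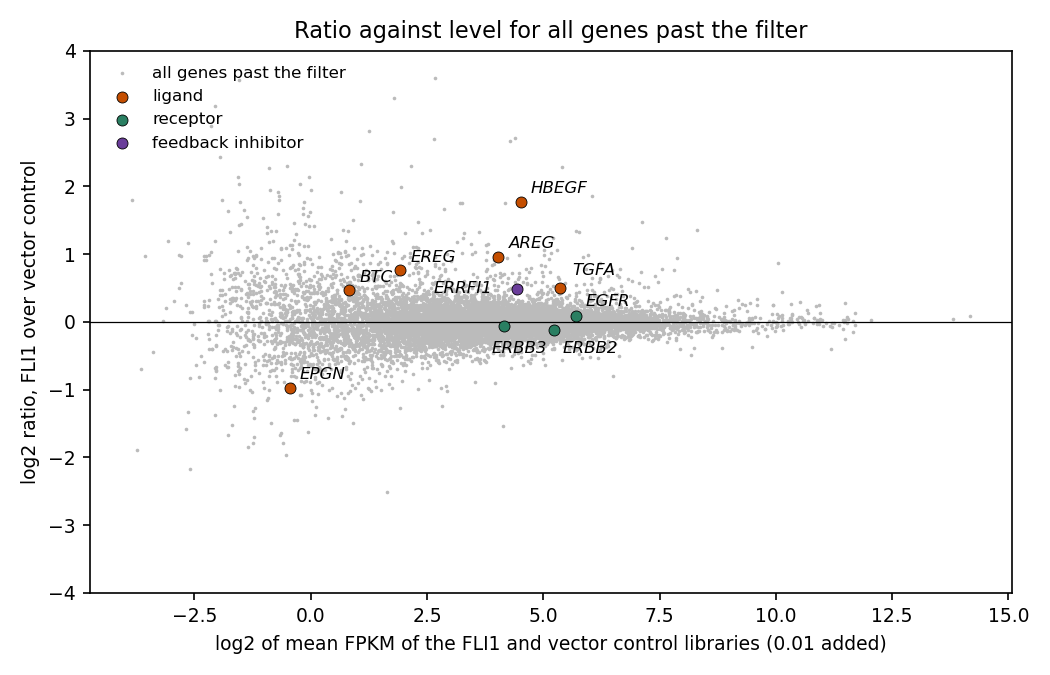
Log2 ratio, FLI1 over vector control, against log2 mean FPKM for the genes past the filter, with the ligand genes in orange, the receptor genes in green and ERRFI1 in purple. HBEGF and AREG lie above most genes at their level and EGFR, ERBB2 and ERBB3 within the cloud, and 13 genes outside the plotted range of ratios are not drawn.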

How the data were processed

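The series holds 2 HaCaT libraries, grouped by genotype label. Total RNA was run on a BGISEQ platform, per the labels' protocols, and GRCh38.p13 is the build named in the submitters' processing notes. Aligner, counting tool, annotation and strand setting: not given in the sources used here. Each deposited table has counts, FPKM and TPM, per the file headers, for 15159 genes or 61479 transcripts. The deposited counts are estimated counts, whole to within 0.005 reads for 84.5% of genes in the FLI1 library and 84.1% in the vector control library. The design had foreseen raw counts, so they were rounded. The FPKM values, deposited by the authors and relative to transcript length and library depth, gave levels, and the deposited TPM values an alternative.

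TMM scaling (edgeR 4.0.16, R 4.3.3) gave factors of 0.991 for the FLI1 library and 1.01 for the vector control library. Log2 ratios used counts plus 0.5. The 95% intervals are exact conditional (Clopper-Pearson) for ratios, exact conditional odds ratios for ratios of ratios (scipy 1.17.1) and exact Poisson for levels. All cover counting error only, because 1 library per group gives no spread between samples. Reads that carry no molecular identifier may copy 1 molecule, which the intervals do not cover either. The filter was 20 reads in 1 library and the size rule 2-fold (log2 ratio of 1). The interval calculation was tested on simulated data. Positions came from GENCODE release 29 (GRCh38). Promoters came from RefSeq. Protein sequences were not analysed here.

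The members and lists were chosen with earlier results of these data known. Named were FLI1, the 10 members and, per list, up to 4 genes past the filter with an interval that excludes 0, by size of the ratio, or else the 2 with the highest mean FPKM. The genes PMEL, CD68, VWF, MITF, ITGAM, LYZ, TYRP1, DCT, CDH5, MIEN1, PGAP3, NRG3, NRG4 and ERBB4 were named outside this rule, after values had been seen. Alternatives were other scalings (library total, DESeq2 1.42.0 size factors), added values, filters, FPKM or TPM, and NM_ transcripts alone.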

Additional observations from a re-analysis of the deposited data

How the results depend on the processing

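Across 7 alternatives for each of the 10 genes (library total, DESeq2 size factors, an added count of 2, FPKM with 0.5 or 1 added, TPM with 0.5 added and NM_ transcripts alone), 0 of 70 log2 ratios changed sign and 69 stayed within the counting interval of the value reported. The exception was ERBB2, at -0.20 from NM_ transcripts alone. The median of the 10 ranged from 0.33 (FPKM with 1 added) to 0.51 (NM_ transcripts alone), against 0.48, and the cause was not tested. With a minimum of 100 reads, EPGN and BTC dropped out, which left 1 gene with an interval below 0. Among all genes, those at least 2-fold higher and lower numbered 66 and 10 from FPKM with 0.5 added, 49 and 7 at a minimum of 100 reads, and 1178 and 847 with 1 read as the minimum, against 139 and 56. Intervals of all genes above and below 0 numbered 1529 and 2198 by library total and 1823 and 1829 by DESeq2 size factors, against 1923 and 1718. The filters differ in how many low-count genes they admit, and for FPKM the cause was not tested. The ratio of summed ligand FPKM was 1.51 without HBEGF and 2.38 without TGFA, both added after seeing the data. Read number limits EPGN and BTC most. No paired analysis was possible because each group has 1 library, and leaving out a replicate was not possible for the same reason.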
